A study of Aedes aegypti with 19 samples.

Results

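Ovaries of sugar-fed (SF) Aedes aegypti females collected on day 10 were compared with SF ovaries collected on day 3. The aim was to find out how far the ovary of a mosquito that has not taken blood changes over the week between. The comparison uses 6 of the 19 libraries in the series, chosen by their titles: replicates 1, 2 and 4 of SF day 10 and replicates 1, 2 and 4 of SF day 3. SF females of the Poza Rica (Mexico) strain were kept on 10% sucrose and never received blood. Days count from the meal of the blood-fed females, which were 4 to 7 days old when they took it. No separate age is given for the SF females, which were reared identically. The other groups are 3 libraries of SF day 20 and 10 libraries of blood-fed (BF) females, which took 1 meal of warmed sheep blood and were then reared like the SF females (3 on day 10, 4 on day 3, 3 on day 20). Each library is a pool of ovaries dissected from a group of females, with any eggs removed, and was made from stranded total RNA after rRNA depletion.

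Aedes aegypti is anautogenous: a female needs a blood meal to mature a batch of eggs. After adult emergence the primary follicles grow, under juvenile hormone, to a previtellogenic resting stage, and they stay there until blood is taken. A blood meal starts insulin and ecdysteroid release, and 20-hydroxyecdysone then acts through the receptor pair EcR and USP and a cascade of further nuclear receptors (among them E75 and HR4) to drive yolk production in the fat body and yolk uptake in the ovary. The SF ovary on either day is therefore an ovary held before that switch.

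The measure was the number of read pairs on each gene, exons and introns together. The 6 libraries held 43828933 to 55514906 gene reads each, within the 34651820 to 56274885 of all 19, and 15727 to 16142 of the 19381 annotated genes had at least 1 read. Between 91.9% and 92.9% of these reads had a single place in the genome. Levels are given as CPM, the reads of a gene relative to all gene reads of its library, after TMM scaling, which corrects for a few genes taking many reads. The scaling factors of the 6 libraries lay between 0.967 and 1.001. Replicates of a day differed by far more than counting error, with a chi-square of 19.2 to 40.7 per degree of freedom, so no pair was a repeated deposit. The germline gene osk, which nucleates germ plasm in Drosophila, was abundant on both days. It had 3523, 3400 and 3602 CPM on day 10, against 3590, 3370 and 3714 CPM on day 3.

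Few genes were called as different between the days. Of the 13904 genes with enough reads to test, 10 passed an FDR p-value (Benjamini-Hochberg adjusted) of 0.05 in edgeR's quasi-likelihood test, which is 0.0719% of the genes tested. Of these DEGs 9 were lower on day 10 and 1 was higher. All 10 had log2 fold changes (day 10 over day 3) between −0.97 and 0.34, so 0 DEGs (0% of the genes tested) also had an absolute log2 fold change above 1. At that size DESeq2 gave 13 genes and limma-voom gave 1. An unadjusted p under 0.05 was reached by 1996 genes (14.4%), 1069 of them higher and 927 lower on day 10 (edgeR). With no change at all, a share of about 0.05 would be awaited, so more genes may have changed than passed. The number of DEGs depended on the fit: leaving out 1 of the 6 libraries at a time left 0 to 2 DEGs, DESeq2 called 320, and a fit that kept the replicate number as a block called 104.

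The test counts genes that passed, and the intervals show how far the rest could have moved. The 95% interval of the log2 fold change lay wholly between −1 and 1 for 10333 genes (74.3%), and wholly between −0.5 and 0.5 for 6943 genes (49.9%). Precision followed abundance. Among the 2558 genes with a mean of 100 CPM or more, 99.6% had intervals inside the wider limits and 95.7% inside the narrower ones. Among the 4935 genes of 10 to 100 CPM the shares were 98.2% and 82.1%, and among the 2864 genes of 1 to 10 CPM they were 78.5% and 15.3%. The 3547 tested genes under 1 CPM carried little information: 19.5% and 0.226% had intervals inside those limits. The intervals of nearly all abundant RNAs thus left out a change of 1 log2 unit, and those of most rare RNAs did not.

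The size of the differences was small. The median absolute log2 fold change was 0.15 over all tested genes, and it was 0.07, 0.12, 0.21 and 0.37 in the 4 classes of falling abundance. The median standard error was 0.15 over all tested genes and 0.07, 0.09, 0.23 and 0.49 in those classes. A median size near the standard error does not by itself show an absence of change. For comparison, the median absolute log2 fold change was 0.13 for SF day 20 against day 10, 0.23 for SF day 20 against day 3 and 0.49 for BF day 10 against day 3. The first of these shares the day 10 libraries with the comparison described here and the second shares the day 3 libraries. The counts of DEGs in those comparisons were 4 (0.0288%), 2446 (17.6%) and 8479 (61.0%) of the same genes.

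The 100 most abundant genes of the day 3 ovary (985 CPM or more on average) held 19.7% of the gene reads on day 10, against 19.4% on day 3. Of them 95 were also among the 100 most abundant on day 10. None was a DEG, their log2 fold changes ran between −0.44 and 0.60 with a median absolute value of 0.07, and 98 had intervals inside −1 to 1. The 50 most abundant genes of each library took 14.3%, 13.9% and 13.9% of its reads on day 10, against 13.7%, 13.3% and 14% on day 3, and these values overlapped (exact permutation test, two-sided, p = 0.3, where 0.10 is the smallest possible with 3 against 3 libraries).

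**Figure D1:**
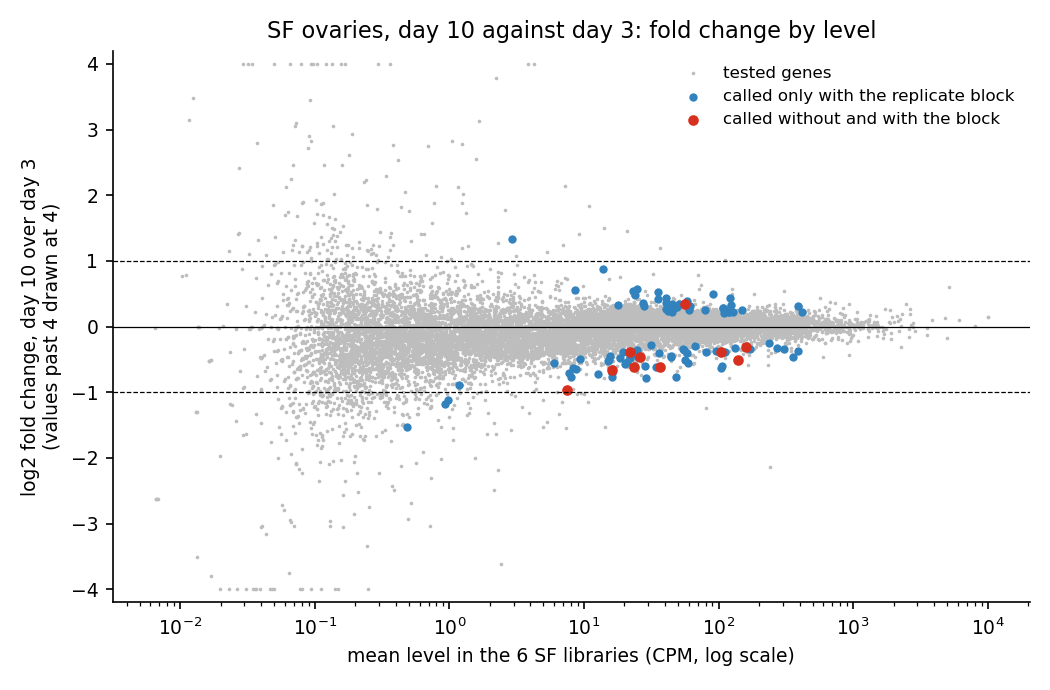
Log2 fold change of SF day 10 over day 3 (vertical axis) against the mean level in CPM over the 6 libraries (horizontal axis, log scale) for the 13904 tested genes, with the 10 DEGs in red, genes called only with the replicate block in blue, dashed lines at −1 and 1, and values past 4 on either side drawn at 4. The cloud narrows toward abundant genes, where the median absolute log2 fold change was 0.07 at 100 CPM and above, and widens below 1 CPM, where it was 0.37.

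Genes under 10 CPM leaned toward lower levels on day 10. The median log2 fold change was −0.20 among genes under 1 CPM and −0.14 among genes of 1 to 10 CPM, and it was 0.06 among genes of 10 to 100 CPM and 0.03 at 100 CPM and above, beside −0.01 over all tested genes. Of the genes under 1 CPM 2376 had a negative and 1165 a positive fold change. In the same-numbered pairs 1, 2 and 4 the medians under 1 CPM were −0.26, −0.12 and −0.22, and those of 10 to 100 CPM were 0.06, 0.05 and 0.04. At 100 CPM and above they were 0.06, −0.01 and 0.05, so pair 2 did not share the positive sign there, and upper-quartile scaling turned the median of that class to −0.02. Leaving out 1 library gave −0.23 to −0.16 under 1 CPM. These class medians are the level against which gene lists of low or high abundance are set below. They were not tested as such, and a median over genes carries no replicate error.

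Groups that did not overlap were common without being DEGs. In 1560 genes (11.2%) each day 10 library was above each day 3 library, and in 1347 genes (9.69%) each was below. Libraries shuffled between the days would give such groups at a share of 0.10 over both directions together. The upward share passed this by itself. Among genes of 1 to 10 CPM 75 were above and 451 below, and among those of 10 to 100 CPM 996 were above and 378 below.

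HR4 and Manf were the DEGs with a gene symbol. HR4 is a nuclear receptor that in Drosophila acts in the ecdysone response. It lies on chromosome 3 of AaegL5.0 from 218937266 to 219454745 on the minus strand and has 14 exons. HR4 had 28.7, 28 and 30.2 CPM on day 10, against 43.9, 45.3 and 44.5 CPM on day 3. The 2 groups were far apart relative to the spread within each, and day 10 over day 3 gave −0.62 on the log2 scale (SE 0.09, 95% interval −0.81 to −0.43, FDR p-value 0.0175 in edgeR's quasi-likelihood test). On day 20 the gene had 26, 27.4 and 29.1 CPM, and the change from day 10 was −0.08 (FDR p-value 0.847, edgeR).

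Manf encodes a secreted factor of the endoplasmic reticulum that is induced by stress of that organelle in Drosophila and mammals. It lies on chromosome 3 from 195539199 to 195550858 on the plus strand. Manf had 17.8, 19.5 and 19.9 CPM on day 10, against 24.1, 24.4 and 26 CPM on day 3, with no overlap. Its log2 fold change was −0.38 (SE 0.07, FDR p-value 0.0484, edgeR). The day 20 libraries, with 20.7, 19.5 and 20.2 CPM, overlapped those of day 10.

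The other 7 protein-coding DEGs that fell carry only an identifier in the files, and no role is given to them here. AAEL012109 (chromosome 1, 171134 to 178442, plus strand) had the largest fold change of the 10. It had 6.09, 4.63 and 4.39 CPM on day 10, against 10.8, 8.92 and 9.93 CPM on day 3, which gave −0.97 on the log2 scale (SE 0.17, FDR p-value 0.0484, edgeR). AAEL011911 (chromosome 3, 337625668 to 337629620, minus strand) had the lowest FDR p-value. Its levels were 18.5, 19.5 and 17.4 CPM on day 10, against 30.4, 28.6 and 26 CPM on day 3. The log2 fold change was −0.62 (SE 0.08, FDR p-value 0.00273, edgeR).

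Among the rest, AAEL019720 (chromosome 2, 212810924 to 212934492, plus strand) had 10.5, 14.1 and 13 CPM on day 10, against 18.7, 21 and 19.6 CPM on day 3. AAEL011648 (chromosome 3, 368833148 to 368850681, minus strand) was the most even of the set, with 22.1, 22.6 and 21.4 CPM on day 10, against 30.3, 30.5 and 30.5 CPM on day 3. Their log2 fold changes were −0.66 and −0.46, each with an FDR p-value of 0.0484 in edgeR. Several genes share this value because the Benjamini-Hochberg adjustment gives ties.

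The 3 other genes that fell were abundant. AAEL006211 (chromosome 2, 49102568 to 49124285, minus strand) had 117, 106 and 121 CPM on day 10, against 156, 167 and 168 CPM on day 3 (log2 fold change −0.52). AAEL005704 (chromosome 2, 336485648 to 336631413, minus strand) had 84.6, 92.3 and 92.7 CPM on day 10, against 107, 123.2 and 124 CPM on day 3 (log2 fold change −0.39). AAEL014959 (chromosome 2, 222752657 to 222803648, plus strand) had 149, 139 and 139.9 CPM on day 10, against 174, 172 and 182 CPM on day 3 (log2 fold change −0.30). None of these groups overlapped, and the FDR p-values were 0.0263, 0.0484 and 0.0484 (edgeR).

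The DEG that rose was a LncRNA, AAEL022771 (chromosome 1, 103494977 to 103525253, minus strand). It had 61.4, 61.4 and 65.5 CPM on day 10, against 46.0, 51.6 and 50.8 CPM on day 3, without overlap. Its log2 fold change was 0.34 (SE 0.06, FDR p-value 0.0263, edgeR). A day 20 level of 64.6, 63.4 and 69.4 CPM continued at the day 10 level.

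**Figure D2:**
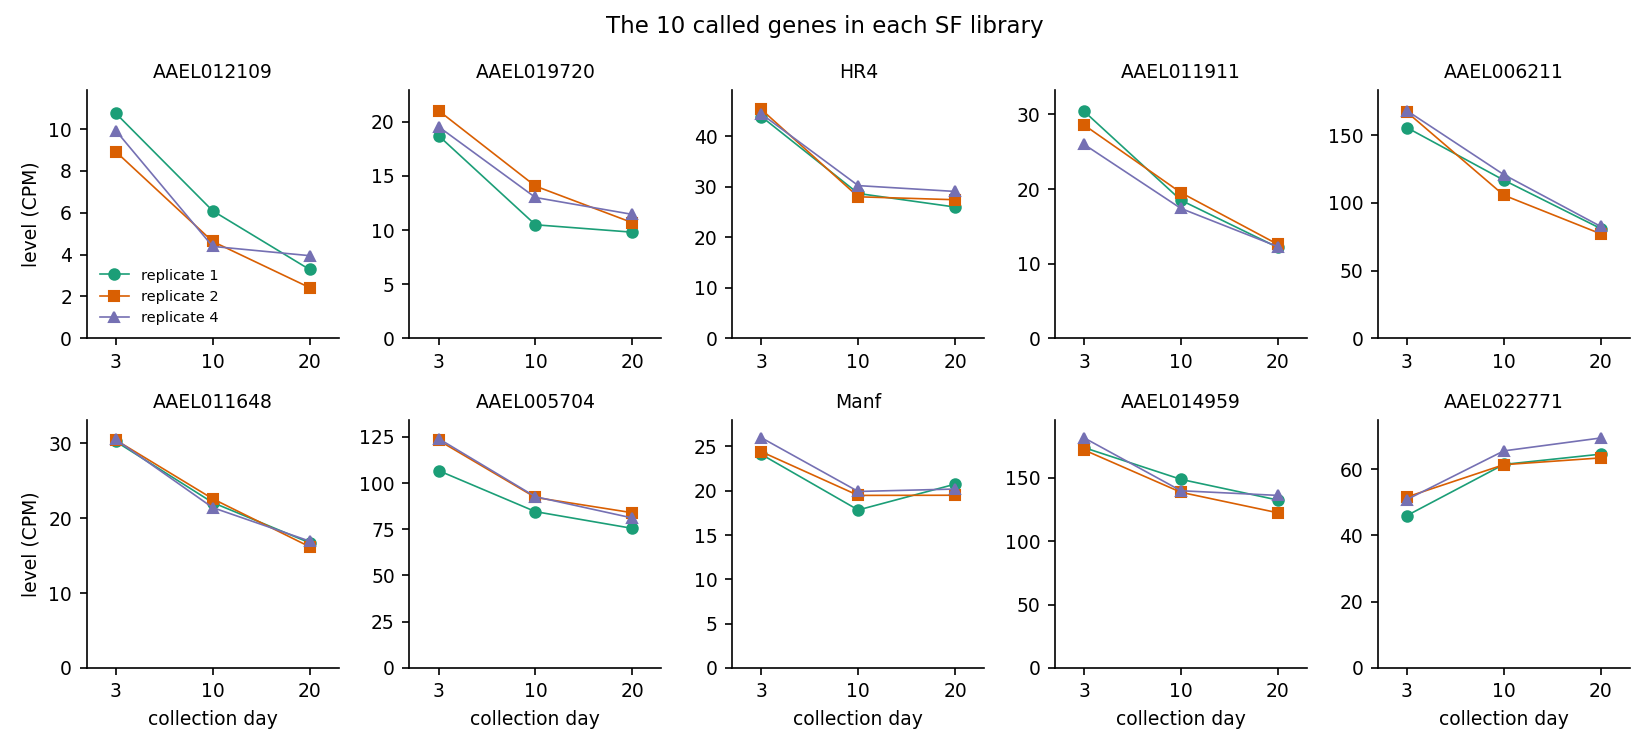
Levels in CPM (vertical axis) of the 10 DEGs in each SF library on days 3, 10 and 20 (horizontal axis), one panel a gene and one point a library, with lines joining the same replicate number. The day 10 points lie below the day 3 points in 9 panels and above them in the panel of the LncRNA AAEL022771. All day 20 points lie below all day 10 points for AAEL011911, AAEL006211, AAEL012109, AAEL011648, AAEL005704 and AAEL014959. Of these, AAEL011911 and AAEL006211 were DEGs of day 20 against day 10.

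In bulk RNA of an ovary, fewer cells of a type and less RNA per cell cannot be told apart, and this applies to every level given. All 10 genes were also called by DESeq2, from exon reads alone, from unique reads alone and with the replicate block. The fit of the 6 SF libraries alone called 1 of the 10, the fit without BF day 3 called 2, and the 9 SF libraries alone and the fit with no filter on low counts called 4 each. The calls were also sensitive to single libraries. With any 1 library left out the direction of each gene was kept, but the FDR p-value of HR4 rose to between 0.0661 and 0.107 and that of Manf to between 0.0842 and 0.203 (edgeR). AAEL011911 was still a DEG except without replicate 4 of SF day 10, where its FDR p-value was 0.053 and no gene was called, and AAEL005704 was still a DEG without replicate 1 of SF day 3 (0.0358).

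Exon and intron reads were also compared, since intron reads come mostly from unspliced RNA. Exon CPM alone separated the days in all 10 genes. Intron CPM separated them in AAEL019720 (lower on day 10) and AAEL022771 (higher on day 10). Among the others, AAEL012109, AAEL011911, AAEL011648, Manf and AAEL006211 had only 55 to 328 intron reads over the 6 libraries. HR4, AAEL014959 and AAEL005704 had 2422 to 2735. AAEL022771 had mean levels of 52.7 exon CPM and 10.1 intron CPM on day 10, against 41.7 exon CPM and 7.76 intron CPM on day 3. For HR4 the exon mean was 21.9 CPM on day 10, against 35.4 CPM on day 3, and the intron mean was 7.05 CPM on day 10, against 9.19 CPM on day 3 with overlap between libraries. Introns made 24.2% of the reads of HR4 on day 10, against 20.7% on day 3.

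Genes that overlap a DEG were few and low. HR4 overlaps the LncRNA AAEL021553 on the other strand, which had 0.0898 CPM on day 10, against 0.1 CPM on day 3. AAEL012109 overlaps AAEL012104 on the other strand, at 1.19 CPM on day 10, against 1.56 CPM on day 3 (FDR p-value 0.404, edgeR). AAEL019720 overlaps 3 genes, none above 1.43 CPM on either day, and AAEL014959 overlaps a pre-miRNA without reads. Whether the counting used strand was not given in the sources used here, so overlapping genes may share reads.

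The days 10 and 20 were compared in the same fit, which shares the day 10 libraries with the comparison above. The fall of AAEL011911 was followed by a further one, to 12.2, 12.6 and 12.3 CPM on day 20 (log2 fold change −0.58 against day 10, FDR p-value 0.00769, edgeR). AAEL006211 also fell again, to 81.0, 77.1 and 82.6 CPM on day 20 (−0.51, FDR p-value 0.0398, edgeR). These were 2 of the 4 DEGs of day 20 against day 10. AAEL012109 (−0.64, FDR p-value 0.450) and AAEL011648 (−0.41, FDR p-value 0.190) did not pass the edgeR test, and the other 6 genes had changes of −0.23 to 0.08. A test of whether the change after day 10 differed from the change before it passed for none of the 10 (FDR p-value 1.0 for each, edgeR). Both changes use the day 10 libraries, and the genes were chosen by the earlier change. The outcome therefore cannot show whether the pace was kept.

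BF ovaries collected on the same days, after the blood meal, had a much larger number of DEGs (61.0%), so the changes of the 10 genes were set against theirs. Of the 13904 genes, 5114 (36.8%) differed between SF and BF in their change from day 3 to day 10 (FDR p-value under 0.05, edgeR interaction contrast). The 10 genes were chosen by their SF change, which is part of this contrast, so their SF changes may be overstated in it. HR4 fell more in BF ovaries: its log2 fold change was −0.62 in SF and −1.22 in BF ovaries, a difference of 0.60 (FDR p-value 0.00124). AAEL019720 (−0.66 in SF and −1.44 in BF), AAEL005704 (−0.39 and −0.82) and AAEL014959 (−0.30 and −0.61) likewise fell less in SF ovaries, and the differences passed (FDR p-values 0.00127, 0.002 and 0.00415, edgeR).

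For another pair the SF change was the larger. AAEL011911 had −0.62 in SF and −0.13 in BF ovaries (difference −0.49, FDR p-value 0.00124, edgeR). AAEL012109 had −0.97 in SF and −0.29 in BF ovaries (difference −0.68, FDR p-value 0.0296, edgeR). For Manf the values were −0.38 in SF and −0.38 in BF ovaries, and for AAEL022771 0.34 and 0.40. The differences for those genes, for AAEL006211 and for AAEL011648 did not pass (FDR p-values 0.340 to 0.967, edgeR).

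Same-numbered replicates deviated together, so a fit with the replicate number as a block was also run, which removes what a number has in common. It called 104 genes (0.748% of those tested), 41 higher and 63 lower on day 10, including all 10 DEGs above. Of these, 103 had day 10 libraries that did not overlap day 3, 102 were protein-coding and 2 were LncRNAs. An absolute log2 fold change above 1 was reached by 4 of them: AAEL001683 (−1.52), AAEL026232 (−1.17), AAEL013040 (−1.11) and AAEL022272 (1.33, with 7.36% unique reads). All were low, with AAEL001683 at 0.205, 0.262 and 0.277 CPM on day 10, against 0.919, 0.728 and 0.513 CPM on day 3. In that fit the FDR p-values of HR4 and Manf were 0.0234 and 0.0256 (edgeR with replicate block).

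Of the genes with symbols, the block added SCRB5, IMP and cact. SCRB5, a class B scavenger receptor, had 16.7, 20.9 and 17.9 CPM on day 10, against 24.5, 25.6 and 26.8 CPM on day 3 (log2 fold change −0.47, FDR p-value 0.0391 with the block and 0.0882 without, edgeR). IMP, listed with the cell death genes, had 15, 16.2 and 19.9 CPM on day 10, against 19.4, 21.9 and 25.2 CPM on day 3 (−0.38, FDR p-value 0.0376 with the block and 0.197 without, edgeR). IMP was lower on day 10 within each number although the groups overlap in range.

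The gene cact encodes Cactus, the inhibitor that holds Toll pathway transcription factors in the cytoplasm. It had 437, 437 and 462 CPM on day 10, against 383, 391 and 377 CPM on day 3 (0.21, FDR p-value 0.0484 with the block, edgeR). Cactus RNA was thus higher on day 10 in each library, while the call without the block was not made (FDR p-value 0.13, edgeR).

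The other protein-coding genes called with the block that had large changes carry no symbol. AAEL003724 had 0.82, 0.787 and 0.878 CPM on day 10, against 1.68, 1.25 and 1.66 CPM on day 3 (−0.87, FDR p-value 0.0481 with the block, edgeR). At higher levels, AAEL014510 had 31.1, 36.8 and 38.7 CPM on day 10, against 56.5, 65.5 and 58.9 CPM on day 3 (−0.77, FDR p-value 0.0234 with the block, edgeR). AAEL021738 (−0.78), AAEL009736 (−0.77) and AAEL019679 (−0.77) changed by as much. AAEL001156 had 18, 22.5 and 13.3 CPM on day 10, against 10.0, 11.9 and 7.44 CPM on day 3 (0.87, FDR p-value 0.0388 with the block, edgeR). In AAEL001156 the replicates kept the order of their numbers on both days, with replicate 2 highest and replicate 4 lowest.

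Abundant genes moved by less. AAEL018219 had 260.3, 328 and 315 CPM on day 10, against 397, 416 and 433 CPM on day 3 (−0.47, FDR p-value 0.0256 with the block, edgeR). AAEL005312 had 441, 446 and 411 CPM on day 10, against 352, 373 and 323 CPM on day 3 (0.31, FDR p-value 0.0422 with the block, edgeR). Neither pair of groups overlapped.

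A principal component analysis of the 6 libraries put replicate 4 ahead of the day, while replicates 1 and 2 were mixed on the first component. The first component (28.8% of the variance) set apart replicate 4, at −40.4 on day 10 and −23.5 on day 3, from the other 4 libraries at 13.4 to 20.0. The second (24%) separated the days, with −21.7, −21.6 and −19.3 on day 10, against 22.9, 13.4 and 26.3 on day 3. Over the 7493 genes of 10 CPM or more, the median absolute log2 difference between 2 libraries was 0.119 to 0.123 for the 3 same-numbered pairs across days and 0.120 to 0.152 for the 6 other pairs across days. The 6 pairs within a day had 0.0726 to 0.122, so the ranges touch. The medians of these distances were 0.109 within a day, 0.120 for same-numbered pairs across days and 0.142 for the other pairs across days.

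**Figure D3:**
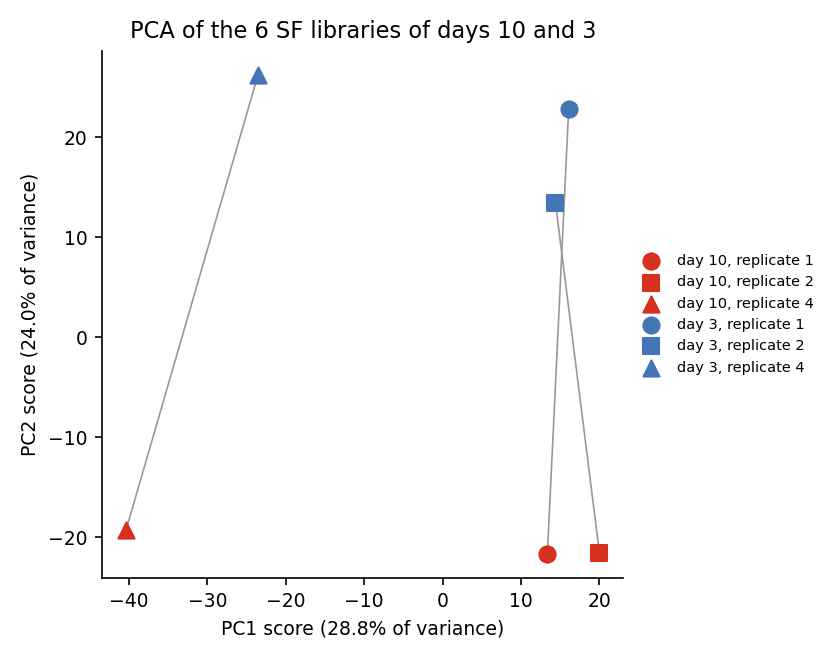
First and second principal components (horizontal and vertical axes, with 28.8% and 24% of the variance) of the log2 CPM of the 6 SF libraries of day 10 and day 3, each point a library (red for day 10, blue for day 3, the shape giving the replicate number, lines joining the same number). Both replicate 4 libraries lie to the left, and the day 10 libraries lie below the day 3 libraries.

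Gene lists were then described by role, from 948 gene symbols of which 763 were tested. Of these 2 were DEGs (HR4 and Manf), and 5 were called with the block. Members named below that were not DEGs, and are no hormone or PIWI genes, were chosen after their values were seen.

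Of 8 nuclear receptors of ecdysone signalling, HR4 was the only DEG, and the list's median log2 fold change was −0.02. E75, which acts early in the ecdysone cascade, had 164, 159 and 153 CPM on day 10, against 181, 209 and 179 CPM on day 3. The groups of E75 did not overlap, but the difference of −0.26 did not pass (SE 0.08, FDR p-value 0.146, edgeR, and 0.0485 in DESeq2). The receptor itself was even: EcR had 295, 322 and 343 CPM on day 10, against 299, 345 and 348 CPM on day 3, and its partner USP had 214, 224 and 207 CPM on day 10, against 206, 217 and 213 CPM on day 3.

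Ecdysteroid and juvenile hormone synthesis genes had no DEG. CYP315A1 (shadow in Drosophila), a late step of ecdysteroid synthesis, had 2.24, 2.60 and 2.61 CPM on day 10, against 3.00, 2.93 and 3.57 CPM on day 3 (log2 fold change −0.35, FDR p-value 0.270, edgeR). CYP307A1, an early step, had 22.4, 24.9 and 31.0 CPM on day 10, against 18.2, 25.7 and 30.3 CPM on day 3, and the replicates differed more than the days. JAHMT, the methyltransferase of juvenile hormone synthesis, had 1.55, 1.57 and 1.62 CPM on day 10, against 2.70, 1.79 and 1.60 CPM on day 3 (−0.36, FDR p-value 0.577, edgeR). The 6 insulin and TOR genes had a median of 0.04 and no DEG.

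The 5 genes listed under germline and egg patterning were among the steadiest, with a median absolute log2 fold change of 0.02. The 6 PIWI genes, also of the germline and described below, had 0.24, beside 0.15 over all tested genes. The log2 fold change of osk was −0.02 (SE 0.08, FDR p-value 0.932, edgeR). The piRNA factor mael had 425, 414 and 367 CPM on day 10, against 434, 409 and 443 CPM on day 3 (−0.09). The innexin inx4, a gap junction gene of the Drosophila germline, had 352, 324 and 304 CPM on day 10, against 346, 304 and 337 CPM on day 3 (−0.01). The other members, cad and Sxl, had −0.09 and 0.02, and vasa, nanos, exuperantia and vitellogenin were not analysed here.

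The PIWI genes, whose proteins bind piRNAs and silence transposons in the germline, did not move as 1 group. PIWI5 had 31.5, 37.6 and 31.1 CPM on day 10, against 42.9, 52.0 and 41.9 CPM on day 3. PIWI3 had 239, 235 and 205 CPM on day 10, against 295, 302 and 296 CPM on day 3. PIWI2 had 84.3, 79.1 and 101 CPM on day 10, against 129, 111 and 212 CPM on day 3. In these 3 of the 6 genes each day 10 library was below each day 3 library, beside 9.69% of all tested genes.

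None of the 3 differences passed in edgeR: the log2 fold changes were −0.45, −0.39 and −0.78, with FDR p-values of 0.158, 0.281 and 0.155. In DESeq2 PIWI5 and PIWI2 passed (0.0457 and 0.018). PIWI4 had 619, 701 and 739 CPM on day 10, against 593, 683 and 690.3 CPM on day 3 (0.07), and PIWI6 had 256, 268 and 247 CPM on day 10, against 246, 276 and 251 CPM on day 3 (0.00). PIWI7 was low, with 0.391, 0.655 and 0.347 CPM on day 10, against 0.56, 0.374 and 0.375 CPM on day 3 (0.10, FDR p-value 0.933, edgeR). The 6 siRNA and miRNA machinery genes had a median of 0.03. The 6 innexins, which form gap junctions, had a median of −0.21 and no DEG. In 3 of these innexins each day 10 library was below each day 3 library, beside 9.69% of all tested genes.

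Among eggshell and yolk genes pxt, a peroxidase with a role in Drosophila egg chambers, was abundant. It had 2466, 2535 and 2415 CPM on day 10, against 2092, 2446 and 1943 CPM on day 3, with overlap between the days (0.19, FDR p-value 0.399, edgeR). The heme peroxidase HPX8B had 2632, 2844 and 2738 CPM on day 10, against 2088, 2617 and 1776 CPM on day 3, narrowly without overlap (0.34, FDR p-value 0.284, edgeR). Vcp and 15a-1, a vitelline membrane gene, were at or below 1.16 CPM in each of the 6 libraries.

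Nuclear genes for mitochondrial ribosomal proteins leaned upward. These proteins make the ribosome that translates the RNAs of the mitochondrial genome. Of 58 tested, 55 had a positive and 3 a negative log2 fold change, with a median of 0.14 (−0.01 over all tested genes). In 30 of them each day 10 library was above each day 3 library, beside 11.2% of all genes, and in none was each below. Among the 4935 genes of 10 to 100 CPM, 996 were above and 378 below. Unadjusted p-values were under 0.05 for 19, all higher on day 10, but 0 were DEGs in edgeR and 2 were called by DESeq2.

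The summed level of the list was 2171, 2131 and 2074 CPM on day 10, against 1952, 1949 and 1919 CPM on day 3. On day 20 it was 2304, 2229 and 2147 CPM. The medians were 0.15, 0.12 and 0.10 in pairs 1, 2 and 4 and 0.12 to 0.15 with 1 library left out. The gene mRpS34 had 32.2, 31.0 and 30.7 CPM on day 10, against 26.7, 24.2 and 27.2 CPM on day 3 (0.27, FDR p-value 0.145, edgeR). The median level of the list was 30.6 CPM, and genes of 10 to 100 CPM as a whole had a median log2 fold change of 0.06.

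RNAs encoded in the mitochondrial genome leaned the other way. All 12 tested mRNAs had negative fold changes, with a median of −0.57, and 0 were DEGs (2 had an unadjusted p under 0.05 in edgeR, and DESeq2 called 0). Their summed level was 1371, 1639 and 982 CPM on day 10, against 1920, 2069 and 1574 CPM on day 3, so the groups overlapped. COX1, a subunit of cytochrome c oxidase, had 806, 956 and 619 CPM on day 10, against 1095, 1204 and 931 CPM on day 3 (−0.44, FDR p-value 0.380, edgeR).

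The medians of the 12 mRNAs were −0.54, −0.37 and −0.65 in pairs 1, 2 and 4, and −0.79 to −0.35 with 1 library left out. They are not 12 independent values, since the mitochondrial genome is transcribed as long precursors. On day 20 the sum was 1403, 1181 and 1258 CPM. As a share of all gene reads, mitochondrial genes made 0.339%, 0.396% and 0.272% on day 10, against 0.489%, 0.533% and 0.391% on day 3 (exact permutation test, two-sided, p = 0.2, 0.8 after Benjamini-Hochberg adjustment over 8 shares). The other 7 shares, among them those of introns, LncRNAs, rRNA and intergenic pairs, had raw p-values of 0.3 to 0.9.

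**Figure D4:**
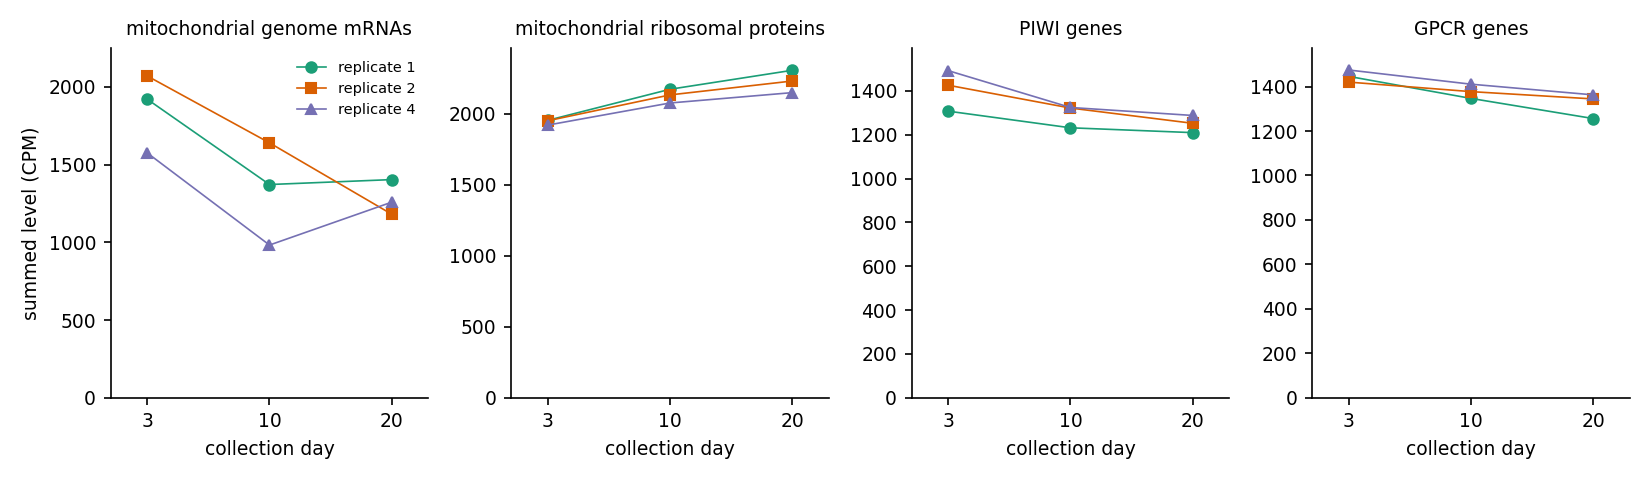
Summed CPM (vertical axis) of gene lists in each SF library on days 3, 10 and 20 (horizontal axis), one point a library and lines joining libraries of the same replicate number. The mitochondrial ribosomal protein sum was 2074 to 2171 CPM on day 10, above the 1919 to 1952 CPM of day 3, whereas the sum of the mRNAs of the mitochondrial genome was 982 to 1639 CPM on day 10, overlapping the 1574 to 2069 CPM of day 3.

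Other housekeeping lists showed small positive medians. For all genes the median was 0.06 at 10 to 100 CPM and 0.03 at 100 CPM and above. The 24 Mediator and co-activator genes, which link transcription factors to RNA polymerase, had 20 positive and 4 negative values and a median of 0.08. Med20 had 24.2, 24.5 and 25.3 CPM on day 10, against 20.1, 18.7 and 19.6 CPM on day 3 (0.34, FDR p-value 0.118, edgeR). The lowest of the 4 negative values was that of Cdk8 (−1.53), of whose reads almost none were unique. The 12 autophagy genes had 11 positive and 1 negative value and a median of 0.12, and for APG7B, which activates the autophagy conjugation system, the values were 37.7, 38.3 and 36.6 CPM on day 10, against 30.4, 36.3 and 30.8 CPM on day 3.

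Medians were 0.10 for 6 proteasome genes, 0.07 for 5 translation initiation genes and 0.01 for 71 cytoplasmic ribosomal proteins (45 positive, 26 negative). None of these lists held a DEG. Among the 8 heat shock and endoplasmic reticulum genes Manf fell and srp54, part of the signal recognition particle, had 97.6, 99.0 and 89.99 CPM on day 10, against 77.1, 88.6 and 82.7 CPM on day 3 (0.21, FDR p-value 0.137, edgeR). The list's median was 0.06.

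Most lists of low genes had negative medians. The 72 tested G protein-coupled receptors, with a median level of 4.86 CPM, had 12 positive and 60 negative values and a median of −0.15, where genes of 1 to 10 CPM as a whole had −0.14. In 12 of the receptors each day 10 library was below each day 3 library and in 3 each was above, beside 451 below and 75 above among the 2864 genes of 1 to 10 CPM (9.69% below and 11.2% above over all tested genes). The 45 P450 genes of the CYP6 and CYP9 families, which metabolise toxins, had 13 positive and 32 negative values and a median of −0.18. CYP6N16 had 4.79, 4.4 and 4.3 CPM on day 10, against 6.82, 6.09 and 6.83 CPM on day 3 (−0.55, FDR p-value 0.217, edgeR). Odorant-binding proteins (24 tested), chemoreceptors (39) and ppk channels (16) had medians of −0.09, −0.10 and −0.16, and no list among these held a DEG. Odorant-binding proteins and chemoreceptors were mostly under 1 CPM, a class with a median of −0.20.

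Metabolic and antioxidant genes stayed near 0 as lists, with medians of 0.08 for 10 core metabolism genes, 0.04 for 21 antioxidant enzymes and 0.00 for 20 glutathione S-transferases. FAS1, a fatty acid synthase, had 312, 279.7 and 319.5 CPM on day 10, against 356, 359 and 370.1 CPM on day 3 (−0.25, FDR p-value 0.230, edgeR). The thioredoxin peroxidase TPX5 had 70.1, 72.8 and 65.9 CPM on day 10, against 59.99, 56.6 and 54.3 CPM on day 3 (0.29, FDR p-value 0.197, edgeR). Both genes had groups that did not overlap, on opposite sides.

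Immune genes were also without a DEG. The medians were 0.04 for 17 antimicrobial peptides and lysozymes, −0.17 for 64 pattern recognition genes, −0.04 for 35 genes of the Toll, IMD and JAK-STAT pathways and −0.16 for 72 CLIP proteases, serpins and prophenoloxidases. The lists with −0.17 and −0.16 had median levels of 1.18 and 1.21 CPM. Genes of 1 to 10 CPM as a whole had a median log2 fold change of −0.14. The antimicrobial list rested on single libraries: its median ran between −0.91 and 0.51 with 1 library left out. SPZ4, a Spätzle-type ligand of Toll receptors, had 3.17, 3.28 and 3.35 CPM on day 10, against 6.14, 4.76 and 5.98 CPM on day 3 (−0.79, FDR p-value 0.113, edgeR). The serpin SRPN9 had 319, 312 and 306 CPM on day 10, against 265, 274 and 233 CPM on day 3 (0.28, FDR p-value 0.118, edgeR). The leucine-rich repeat gene LRIM21 had 57.3, 59.8 and 58.3 CPM on day 10, against 67.5, 74.2 and 73.5 CPM on day 3 (−0.29, FDR p-value 0.181, edgeR). None of these pairs of groups overlapped.

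**Figure D5:**
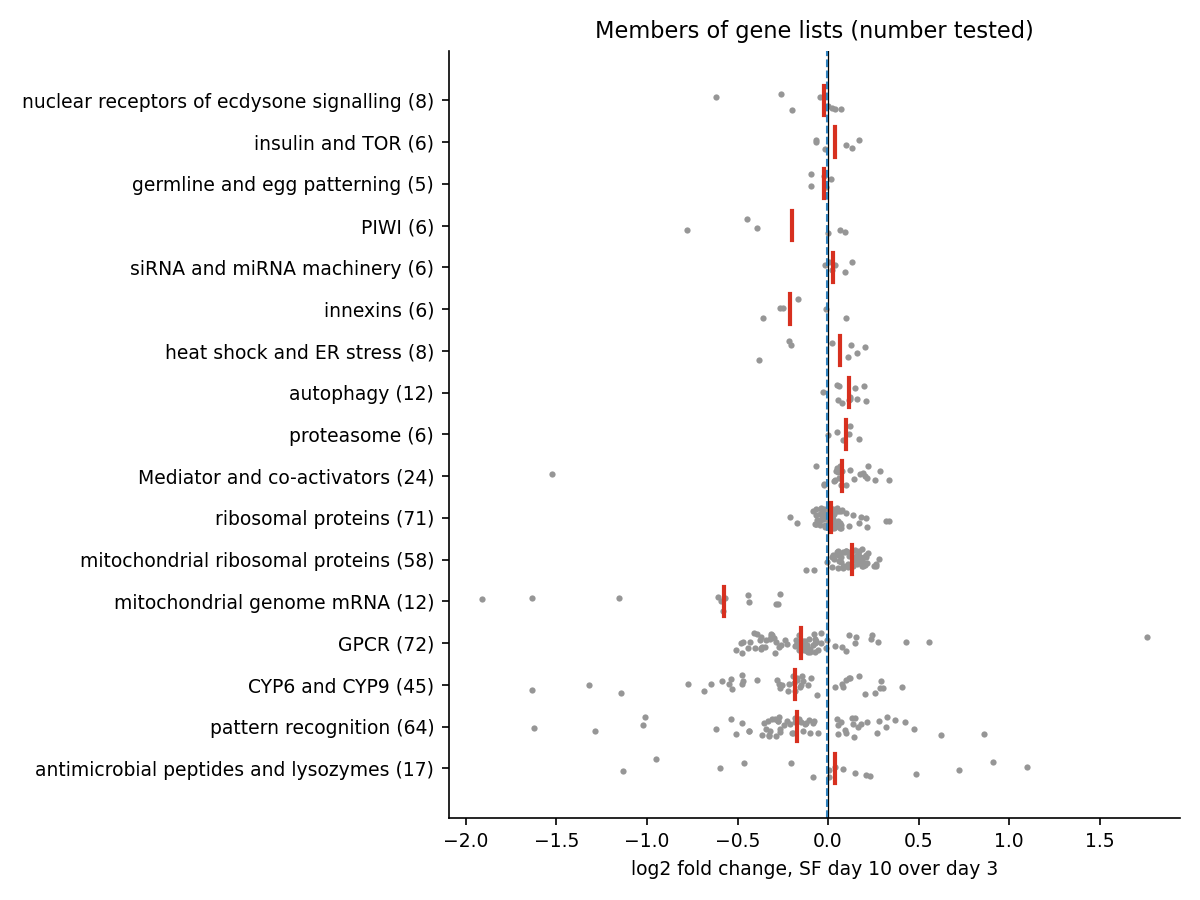
Log2 fold change of SF day 10 over day 3 (horizontal axis) for the tested members (points) of gene lists (rows, with the number tested), with each list's median as a red bar and the median of all tested genes as a dashed line. The medians drawn lie between −0.57 for the mRNAs of the mitochondrial genome and 0.14 for mitochondrial ribosomal proteins, beside −0.01 over all tested genes.

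LncRNAs numbered 1561 among the tested genes and were mostly rare. Their median log2 fold change was −0.14, with 580 positive and 980 negative values. In 61 of the 1561 each day 10 library was above each day 3 library and in 151 each was below, beside 11.2% above and 9.69% below over all tested genes. Among the 3547 tested genes under 1 CPM, 89 were above and 352 below. AAEL022771 was the only DEG. The medians followed the level in both kinds of gene: LncRNAs of 1 CPM or more (466) had a median of −0.04 and those under 1 CPM (1095) −0.21, beside 0.02 for 9833 protein-coding genes of 1 CPM or more and −0.20 for 2420 under 1 CPM. None of the 597 tRNAs and 111 pre-miRNAs had enough reads to be tested.

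Markers of tissues that a dissected ovary could carry were summed in each library. Salivary gland markers had 1.2, 0.7 and 0.5 CPM on day 10, against 1.0, 0.9 and 0.8 CPM on day 3, and midgut markers had 1.8, 1.0 and 1.6 CPM on day 10, against 1.6, 1.2 and 4.4 CPM on day 3. Muscle markers, 3 genes, had 128 to 134 CPM on day 10, against 124 to 132 CPM on day 3, and the 10 haemocyte genes had 304 to 342 CPM on day 10, against 292 to 306 CPM on day 3. The nervous system list had 21.5 to 23.2 CPM on day 10, against 21.9 to 23.4 CPM on day 3. All these ranges overlapped and no marker was a DEG.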

How the data were processed

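Ovary RNA of 19 libraries was sequenced as read pairs, and the 6 of SF day 10 and SF day 3 were compared. The authors trimmed the pairs, mapped them to AaegL5.0 in the CLC workbench and counted them on genes. The deposited count values (total, unique, exon and intron gene reads) are whole numbers without normalization. The RPKM values deposited by the authors were used only to derive the mapped pairs and the intergenic share, and the deposited TPM values were not used. The release of the annotation used for counting, and whether counting used strand, were not given in sources used here.

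The test was edgeR 4.0.16 (R 4.3.3) on total gene reads. Genes passed filterByExpr with a count of at least 10 and a total of at least 15, were scaled by TMM and entered a robust quasi-likelihood fit of all 19 libraries in 6 groups. P-values were adjusted over 13904 genes (Benjamini-Hochberg). DEGs had an FDR p-value under 0.05. Alternatives were DESeq2 1.42.0, limma 3.58.1 (voom), other scalings, filters, reads and sample sets, each library left out, and the replicate block. The scripts were tested on simulated data. Replicates were named biological, and p-values measure the spread between these pools.

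Replicate numbers come from the sample titles. Deviations from the day mean correlated at 0.124, 0.146 and 0.288 for numbers 1, 2 and 4 and at −0.222 to 0.0901 for other pairs, so the block was also fitted.

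Named genes were DEGs without overlap between groups, with at least 10 reads in each library of the higher group and at least 50% unique reads (10 largest changes each way, 3 for other biotypes, 5 most abundant each way), DEGs of each list, and hormone, germline and PIWI genes. The same rule was applied to calls with the block. The comparison, members and lists were chosen with earlier results of these data known. The fold changes and p-values of the authors' own comparisons were not used.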

Additional observations from a re-analysis of the deposited data

Results flagged for a closer look

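For 6 of the 10 DEGs the change from day 3 to day 10 differed between SF and BF ovaries in the interaction contrast of edgeR (FDR p-value under 0.05). The difference, SF change minus BF change on the log2 scale, was −0.68 for AAEL012109 (FDR p-value 0.0296) and −0.49 for AAEL011911 (0.00124), where the SF fall was the larger. It was 0.78 for AAEL019720 (0.00127), 0.60 for HR4 (0.00124), 0.43 for AAEL005704 (0.002) and 0.30 for AAEL014959 (0.00415), where the BF fall was the larger. Over all tested genes 36.8% passed the same contrast. The 10 DEGs were chosen by their SF change, which the contrast contains, so their share is not a like-for-like comparison with that percentage.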

How the results depend on the processing

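The number of DEGs between SF day 10 and day 3 (10) depended on the processing, and none of the 10 changed direction under the alternatives run for them. Some hormone, yolk and PIWI genes that were no DEGs changed sign with a library left out or in another fit. With the replicate block the count was 104 over 19 libraries, 249 over the 6 SF libraries and, chosen after seeing the data, 189 over the 9 SF libraries. Without the pairing it was 320 in DESeq2, 19 from exon reads, 18 in limma-voom, 6 from the 6 SF libraries alone, 4 with no filter on low counts, 1 at an FDR threshold of 0.01 and 0 when tested against a log2 fold change of 1. Chosen after seeing the data, it was 22 from exon reads of the 9 SF libraries and 2 without BF day 3. Leaving out 1 library gave 0 to 2. Other scalings, unique reads and the 9 SF libraries gave 9 to 14.

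With an absolute log2 fold change above 1 (0 genes), the replicate block gave 4, 24 and 9 for the 19, 6 SF and 9 SF libraries. DESeq2 gave 13, limma-voom 1, upper-quartile scaling 1, the 6 SF libraries 2, the 9 SF libraries 4 and their exon reads 4. Leaving out 1 library gave 0 to 1. For SF day 20 against day 10 (4 genes), DESeq2 gave 59, the fit without BF day 3 gave 2 and the replicate block over the 9 SF libraries gave 1. Leaving out 1 library gave 0 to 4. The causes were not tested. The block changed no other call of a gene named as a DEG. Of the 10 DEGs, 1 kept its call with the 6 SF libraries alone, where the other 5 calls were different genes. The fit without BF day 3 kept 2, and the 9 SF libraries and no filter kept 4 each. Depth limits the genes under 1 CPM, and intervals there are wide.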

Other observations

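AAEL025887 had 7.19, 7.15 and 8.0 CPM on day 10, against 0.28, 0.312 and 0.296 CPM on day 3, the log2 fold change being 4.64 (FDR p-value 0.0874, edgeR). On day 20 it had 8.54, 0.214 and 0.349 CPM, so 1 of the 3 libraries was at the day 10 level. Almost none of its reads had a single place in the genome, so they may belong to a copy elsewhere.

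An absolute log2 fold change above 1 was seen in 496 tested genes, 157 higher and 339 lower on day 10. Of these 430 had a mean under 1 CPM and 204 had under 50% unique reads, and 34 had both 1 CPM or more and at least 50% unique reads. None of the 496 was a DEG in edgeR.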
